A study of Mus musculus with 4 samples.

Results

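The genes described here are 10 stress response factors and direct targets of the transcription factor ATF4, taken by symbol from a table of read counts that held 55421 genes. They are Atf4 itself, the further transcription factors Ddit3 (CHOP), Atf3 and Atf5, and the effectors Trib3, Chac1, Asns, Sesn2, Ddit4 and Nupr1. The symbols matched 11 rows, because 2 rows carried the name Ddit3. Libraries came from primary cultures of mouse spermatogonia (SSC cultures) made from the testes of CD1 pups less than a week old. All cultures were grown with N2 supplement and 10 ng/ml each of bFGF and GDNF, on irradiated mouse embryonic fibroblast (MEF) feeder cells of another mouse stock, CF1. Veh cultures stayed in complete medium. NRRA cultures were kept for a pair of days in nutrient restriction medium plus retinoic acid (RA), in which a balanced salt solution without amino acids replaced most of the complete medium, so that serum, growth factors and amino acids were diluted together. None of the libraries analysed here received nutrient restriction or RA alone, so the effects of the 2 agents cannot be told apart. Each group had 2 libraries.

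The integrated stress response begins when 1 of the eIF2 alpha kinases senses a stress such as amino acid shortage (GCN2, gene Eif2ak4), unfolded protein in the endoplasmic reticulum (PERK, Eif2ak3), double-stranded RNA (PKR, Eif2ak2) or heme shortage (HRI, Eif2ak1). Phosphorylated eIF2 alpha lowers general protein synthesis, while Atf4 mRNA, which carries short upstream reading frames, is translated more. ATF4 then binds with a C/EBP family partner to C/EBP-ATF response elements and raises genes for amino acid supply, redox balance and feedback. Much of the control of ATF4 lies in translation and protein stability, which a transcript count does not measure.

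Counts assigned to genes totalled 28022265 to 31604769 per library. Stra8, a direct target of RA, checked the group labels, because the protocol text of all 4 samples names NRRA while their titles and treatment labels separate the groups. In CPM (counts relative to the library size, here after TMM scaling), Stra8 stood at 9.62 and 10.1 in the Veh libraries and at 1863.8 and 1852.7 in the NRRA libraries. The germ cell marker Ddx4 was present at 268 to 278 CPM in all libraries. Of 12 germ cell markers, 5 were higher, 6 lower and 1 not called by the test named below. Among all genes tested, 27.9% were higher and 28.4% lower. The sum of these markers went from 2709.3 ± 40.6 CPM in Veh to 4547.5 ± 6.15 CPM in NRRA. Without Stra8, which was left out after its level was seen, the sums were 2699.4 ± 40.3 and 2689.2 ± 1.73 CPM. Single markers within these sums moved far in opposite directions. Kit, a receptor of differentiating spermatogonia, had a log2 fold change of 5.59, while Id4, Zbtb16, Etv5 and Gfra1, genes of undifferentiated spermatogonia, had values of -3.32, -2.43, -1.97 and -1.38. A near-identical copy matches 42.8% of the longest Etv5 transcript, which leaves the Etv5 value uncertain. Of 16 fibroblast feeder markers, 13 were lower and 2 higher in NRRA, beside 28.4% and 27.9% of all genes tested. The feeder markers had a median log2 fold change of -0.40 and a range from -1.43 (Lum) to 0.98 (Pdgfra). Their summed level went from 9388.5 ± 62.4 CPM in the Veh libraries to 7249.9 ± 98.6 CPM under NRRA (mean ± SD of 2 libraries each). S100a4, the fibroblast marker by which the study named its feeder cells, was at 0.959 and 0.975 CPM in Veh and 0.583 and 0.365 CPM in NRRA, and no marker of the list was at 0. Another gene on the same strand shares 51.7% of the exonic bases of S100a4, so that its level is uncertain. In whole-culture RNA, fewer feeder cells and less RNA per feeder cell cannot be told apart, and the part of feeder RNA in the values below was not tested.

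All 10 genes were detected in every library and passed the filter on low counts. The second row named Ddit3 (ENSMUSG00000116429), a short coding gene whose exons lie wholly within those of Ddit3, held 0 counts in all libraries and was not tested. In NRRA, 4 of the 10 genes were lower (Atf4, Trib3, Chac1 and Ddit4), 2 were higher (Nupr1 and Atf5), and 4 did not pass the test (Ddit3, Atf3, Asns and Sesn2). The test was edgeR's quasi-likelihood test with Benjamini-Hochberg adjustment over 20232 genes and a threshold of 0.05. Over all genes tested, 28.4% were lower, 27.9% higher and 56.4% called in either direction, so the share of these genes that was called is close to that of the transcriptome. The median log2 fold change (NRRA over Veh) of the 10 genes was -0.034 (0.056 without TMM scaling, and -0.056 without NRRA replicate 1 to -0.014 without NRRA replicate 2), beside 0.00030 over all genes tested. Summed over the 10 genes, the Veh libraries held 381 ± 4.17 CPM and the NRRA libraries 339 ± 8.84 CPM (mean ± SD of 2 libraries each). The genes therefore did not move together, and their changes ranged from -1.22 for Trib3 to 0.87 for Nupr1 on the log2 scale.

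**Figure D1:**
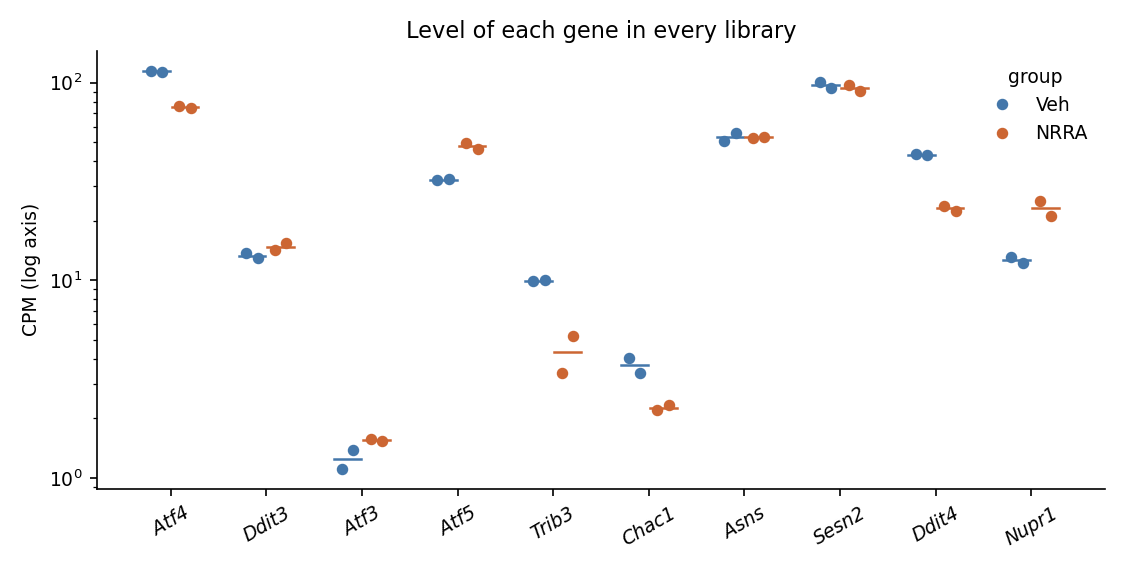
Level of the 10 genes in CPM (log axis) in each of the 2 Veh (blue) and 2 NRRA (orange) libraries, with the group mean as a bar. Atf4, Trib3, Chac1 and Ddit4 sit lower and Atf5 and Nupr1 higher in both NRRA libraries, while the libraries of the 2 groups interleave for Asns and Sesn2.

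Atf4, the central factor of the response (ENSMUSG00000042406, GRCm38 chromosome 15, 80255184 to 80257541, plus strand), had levels of 115 and 113 CPM in the Veh libraries and 75.9 and 74.7 CPM in the NRRA libraries. The groups were well apart and the libraries of each group nearly equal. The log2 fold change was -0.60 (SE 0.039, edgeR adjusted p 6.12e-13), a 1.51-fold lower transcript level in NRRA. Of all genes tested, 14.1% had a lower log2 fold change.

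The genes that feed into ATF4 moved in both directions. Of 18 genes for eIF2 alpha kinases, their regulators, the phosphatase subunits and the eIF2 and eIF2B complexes, 4 were higher, 10 were lower and 4 were not called, with a median log2 fold change of -0.14 (-0.049 without TMM scaling). Among all genes tested, 27.9% were higher and 28.4% lower. Of the 4 kinases, 3 were higher. Eif2ak4 (GCN2), the sensor of uncharged tRNA, had levels of 67.8 and 69.6 CPM in Veh and 88.9 and 91.6 CPM in NRRA (log2 fold change 0.39, SE 0.042). Eif2ak2 and Eif2ak3 had log2 fold changes of 0.38 and 0.17. Eif2ak1, with a log2 fold change of 0.043 and an interval from -0.030 to 0.12 (95%), did not pass the test. The fourth gene that was higher was Ppp1r15b, the constitutive phosphatase subunit that removes the phosphate from eIF2 alpha, with a log2 fold change of 0.32. Ppp1r15a (GADD34), the inducible subunit and itself a target of ATF4, was lower by a small amount (log2 fold change -0.11, edgeR adjusted p 0.0299).

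The substrate complex and the regulators of GCN2 were mostly lower. The subunit genes Eif2s1, Eif2s2 and Eif2s3x had log2 fold changes of -0.31, -0.41 and -0.76. Copies elsewhere in the genome match 27.9% of the longest Eif2s1 transcript and 37% of that of Eif2s3x, which leaves the values of both uncertain. Of the 5 genes of eIF2B, the exchange factor that phosphorylated eIF2 blocks, 4 were lower (Eif2b2 to Eif2b5, log2 fold changes from -0.23 to -0.12) and Eif2b1 was not called (-0.0048). Gcn1, which activates GCN2, had a log2 fold change of -0.17. Impact, an inhibitor that competes with GCN2 for binding to GCN1, had one of -0.42. Oma1 and Dele1, which relay mitochondrial stress to HRI, were not called (-0.16 and -0.0066).

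The other 3 transcription factors behaved differently from Atf4. Atf5, a relative of ATF4 whose mRNA has a similar upstream reading frame control (ENSMUSG00000038539, chromosome 7, 44812256 to 44816658, minus strand), had levels of 32.2 and 32.5 CPM in Veh and 49.3 and 46.3 CPM in NRRA. Both NRRA libraries were above both Veh libraries, and the log2 fold change was 0.56 (SE 0.058, edgeR adjusted p 5.00e-09). Exons of Il4i1 or Nup62 on the opposite strand overlap 4.11% of its exonic bases.

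Ddit3 encodes CHOP, a factor linked to cell death under lasting stress (ENSMUSG00000025408, chromosome 10, 127290774 to 127296288, plus strand). Its counts were 372 and 384 in the Veh libraries (13.7 and 12.9 CPM) and 463 and 465 in the NRRA libraries (14.2 and 15.4 CPM). The NRRA libraries were higher, but the gap between the groups was smaller than the gaps between replicates, and the difference did not pass the test (log2 fold change 0.16, 95% interval -0.039 to 0.35, edgeR adjusted p 0.167). With library sizes taken without TMM scaling the value was 0.25 and passed (edgeR adjusted p 0.0288), while the adjusted p of the 10 other alternatives ranged from 0.136 to 0.553. The short gene inside Ddit3 covers 6.13% of its exonic bases, and reads that fall on both genes may have been left out of the count. Exons of Gm4189 or Mars on the opposite strand overlap 4.73% of the exonic bases of Ddit3. Mars stood at 257 and 272 CPM in Veh and at 192 and 190 CPM in NRRA.

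Atf3, a stress-induced repressor and activator of the same bZIP class (ENSMUSG00000026628, chromosome 1, 191170296 to 191218039, minus strand), was the least expressed of the 10 genes. Only 30 and 41 reads were counted in the Veh libraries (1.11 and 1.38 CPM), against 51 and 46 in the NRRA libraries (1.57 and 1.53 CPM). No difference was detectable at this depth (log2 fold change 0.31, SE 0.28, edgeR adjusted p 0.37), and the 95% interval from -0.27 to 0.90 includes changes of either direction. In CPM, the groups did not overlap for 4 genes on the higher side (Ddit3, Atf3, Atf5 and Nupr1) and 4 on the lower side. Over all genes tested, 38.1% had non-overlapping groups on the higher side and 38.6% on the lower side, together 76.7%.

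Partners and relatives of these factors were called in both directions. Of 9 genes for bZIP partners and regulators of ATF4, 6 were lower and 3 higher, beside 28.4% and 27.9% of all genes tested. Their median log2 fold change was -0.35. Cebpb, Cebpg and Cebpd, which encode C/EBP proteins that can pair with ATF4, had log2 fold changes of -0.35, -0.36 and -0.39. Nfe2l2 (NRF2, the regulator of antioxidant genes), Jun and Jdp2 were lower as well (-0.35, -0.52 and -0.64). Those that were higher were Jund (0.75), Fos (0.32) and Btrc (0.16), which encodes a ubiquitin ligase subunit that targets ATF4 for breakdown. The Jund value is uncertain, since 52.6% of its exonic bases are shared with a gene of the other strand and no source used here states how strand was counted. The same holds for 20.7% of Cebpb and 15% of Cebpd.

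Among the effectors, the feedback gene Trib3 had the largest fall of the 10 genes. Trib3 encodes a pseudokinase that ATF4 and CHOP induce and that restrains ATF4 (ENSMUSG00000032715, chromosome 2, 152337422 to 152344032, minus strand). Veh cultures gave 270 and 299 reads (9.95 and 10.0 CPM), while NRRA cultures gave 110 and 158 reads (3.38 and 5.25 CPM). Both NRRA libraries were far below both Veh libraries, but they also differed from each other. The log2 fold change was -1.22 (SE 0.15, edgeR adjusted p 1.63e-07), and Trib3 was the only 1 of the 10 genes called with at least a 2-fold change, beside 13.3% of all genes tested (7.02% on the lower side and 6.29% on the higher side). Without NRRA replicate 1 the value was -0.93, still past the threshold but under 2-fold, and without NRRA replicate 2 it was -1.57.

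Chac1 encodes an enzyme that degrades glutathione and is among the most responsive targets of ATF4 in many cells (ENSMUSG00000027313, chromosome 2, 119351229 to 119354381, plus strand). Reads numbered 110 and 101 in the Veh libraries (4.06 and 3.39 CPM) and 72 and 70 in the NRRA libraries (2.21 and 2.33 CPM). The groups did not overlap, and the log2 fold change was -0.71 (SE 0.20, edgeR adjusted p 0.00321). The call was lost with DESeq2 (log2 fold change -0.71, DESeq2 adjusted p 0.0683), and the adjusted p of the 10 other alternatives ranged from 0.00149 to 0.042.

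Upstream sequences of these genes are shown because ATF4 acts through a defined DNA element. The RefSeq promoter table (GRCm38.p6) held all 10 genes, and the 250 bases before each start were searched on both strands for the core of the C/EBP-ATF response element, TGATGNAA, where N is any base. It occurred in 4 of the 10 genes and in 3.45% of all 32851 promoters of the table. In the sequences below, written 5′ to 3′ in the direction of the gene, capitals mark the match. Those of Chac1, Atf3 and Nupr1 carry it on the opposite strand, where the core reads as its reverse complement.
Chac1, chr2:119351039-119351066, plus strand: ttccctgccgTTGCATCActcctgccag
Atf3, chr1:191183426-191183453, minus strand: cttctcgcacTTGCATCAccaagtccgc
Nupr1, chr7:126625563-126625590, minus strand: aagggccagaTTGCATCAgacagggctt
Asns, chr6:7693215-7693242, minus strand: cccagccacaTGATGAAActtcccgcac
The match starts 193 bases before the start in Chac1, 110 in Atf3, 110 in Nupr1 and 23 in Asns. GENCODE places a start farther upstream for Nupr1, Asns and Atf3, so that the match lies within the gene, in an exon in Nupr1 and Asns and outside exons in Atf3. The 4 genes that hold the core include 1 that fell (Chac1), 1 that rose (Nupr1) and 2 that were not called. No match to the cAMP response element TGACGTCA (1.55% of all promoters) or to the ER stress element (CCAAT and CCACG with any 9 bases between them, 0.113% of all promoters) was found in the window of any of the 10 genes.

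The bases upstream of Chac1, which has the core in its window, and of Trib3, which does not, are given at greater length as examples from the effectors that fell. Both stretches end before the start in RefSeq and in GENCODE. In the stretch of Chac1 the core is in capitals, and in that of Trib3 no exact match to the core occurs. Only exact matches were searched, so a site that differs by a base may be present.
Chac1, chr2:119351029-119351228, plus strand: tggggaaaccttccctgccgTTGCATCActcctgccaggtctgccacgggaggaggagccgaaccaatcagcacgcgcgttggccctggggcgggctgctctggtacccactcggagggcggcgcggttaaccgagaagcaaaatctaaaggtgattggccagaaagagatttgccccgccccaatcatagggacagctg
Trib3, chr2:152344061-152344260, minus strand: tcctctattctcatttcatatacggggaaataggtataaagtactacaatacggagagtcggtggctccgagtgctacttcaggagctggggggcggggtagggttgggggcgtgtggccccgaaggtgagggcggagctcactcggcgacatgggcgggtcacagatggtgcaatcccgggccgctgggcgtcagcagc

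Ddit4 encodes REDD1, a stress-induced inhibitor of the growth kinase complex mTORC1 (ENSMUSG00000020108, chromosome 10, 59949669 to 59951834, minus strand). The Veh libraries held 43.4 and 43.0 CPM of it and the NRRA libraries 23.9 and 22.3 CPM. The libraries of each group lay close together and the groups were far apart, and the fitted log2 change was -0.90 (SE 0.064, with an adjusted p from edgeR of 3.13e-12). Nupr1 encodes a small chromatin-associated stress protein (ENSMUSG00000030717, chromosome 7, 126623249 to 126630861, minus strand) and had the largest rise. Transcript levels were 13.1 and 12.3 CPM under Veh, and 25.1 and 21.2 CPM under NRRA. Both NRRA libraries were above both Veh libraries, and the fitted change was 0.87 on the log2 scale (SE 0.092, edgeR adjusted p 7.20e-09). Of all genes tested, 91.5% had a lower log2 fold change than Nupr1.

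The genes most directly tied to amino acids did not pass the test. Asns encodes asparagine synthetase, the classical reporter of amino acid shortage (ENSMUSG00000029752, chromosome 6, 7675169 to 7693254, minus strand). The Veh libraries held 50.9 and 55.6 CPM, and the NRRA libraries 52.4 and 53.2 CPM. Both NRRA libraries lay between the Veh libraries. The log2 fold change was -0.014 (95% interval -0.12 to 0.094, edgeR adjusted p 0.842), and its sign was positive without Veh replicate 2 (0.050) and with library sizes without TMM scaling (0.075). Sesn2 encodes sestrin 2, a leucine sensor that holds mTORC1 in check (ENSMUSG00000028893, chromosome 4, 132492032 to 132510501, minus strand). It was measured at 101 and 94.2 CPM in Veh and 97.3 and 90.4 CPM in NRRA. The libraries of the 2 groups interleaved, with a log2 fold change of -0.054 (95% interval -0.14 to 0.035, edgeR adjusted p 0.302), and the value was 0.036 without TMM scaling. It was -0.11 without NRRA replicate 1 and -0.0034 without NRRA replicate 2. For both genes the interval leaves room only for changes far smaller than those of Trib3, Ddit4 and Nupr1.

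**Figure D2:**
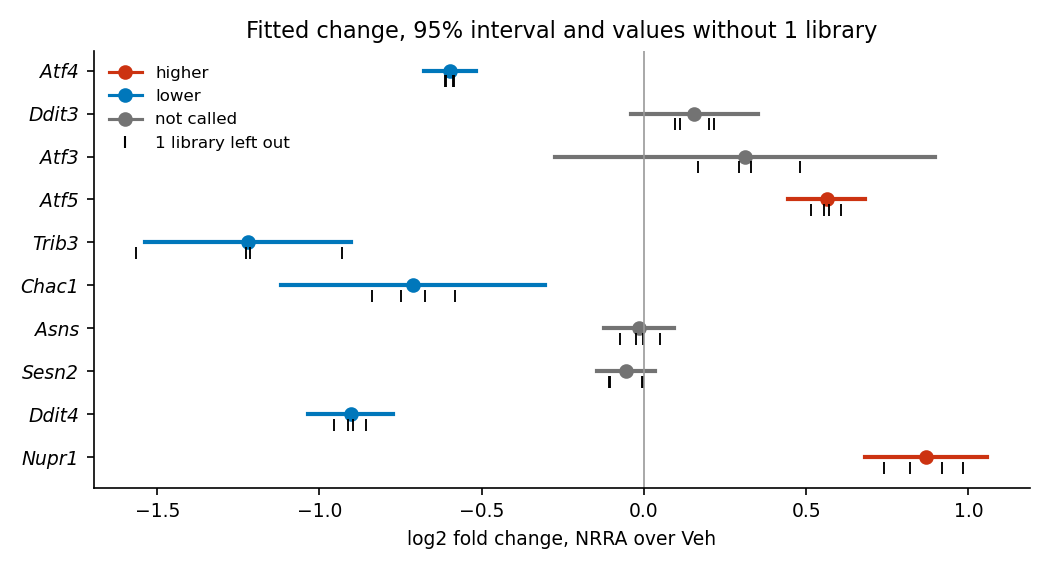
Log2 fold change (NRRA over Veh) of the 10 genes with its 95% interval, coloured by the call of edgeR's quasi-likelihood test, and below each the 4 values obtained when 1 library was left out (black ticks). The ticks of Trib3 spread from -1.57 to -0.93, the intervals of Asns and Sesn2 are narrow around 0, and that of Atf3 is wide.

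Of the 10 genes, 8 overlap no other annotated exon, and their longest transcripts have no near-identical copy among the annotated transcripts. The exceptions are Ddit3 and Atf5. Copies outside the annotation were not searched. Per kilobase of annotated exon, a scale for a rough comparison of genes, Atf4 had the highest level of the 10 and Atf3 the lowest in both groups. The annotated exons together exceed the longest transcript by unlike amounts. They span 2735 against 2016 bases in Asns, 1713 against 969 in Ddit3, and 1755 in both measures in Ddit4. Close places in the order below therefore depend on the length used. In Veh the order below Atf4 (48.4 ± 0.573 CPM per kilobase) was Sesn2 (28.1), Ddit4 (24.6), Asns (19.5), Atf5 (16.2), Ddit3 (7.77), Nupr1 (5.05), Trib3 (4.71), Chac1 (2.28) and Atf3 (0.577 ± 0.0892, SD, n = 2). Each gene was above the next in both Veh libraries. In NRRA, Atf4 was at 31.9 ± 0.378 CPM per kilobase (SD, n = 2), followed by Sesn2 (27.0), Atf5 (24), Asns (19.3) and Ddit4 (13.2). Atf5 and Ddit4 had thus changed places. Nupr1 (9.20 ± 1.10) and Ddit3 (8.66 ± 0.508) came next, and their ranges over the NRRA libraries overlapped. Trib3 (2.03), Chac1 (1.39) and Atf3 (0.718) were the lowest. The median over the 20203 tested genes with an annotated exon length was 3.85 CPM per kilobase in Veh and 3.95 in NRRA.

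**Figure D3:**
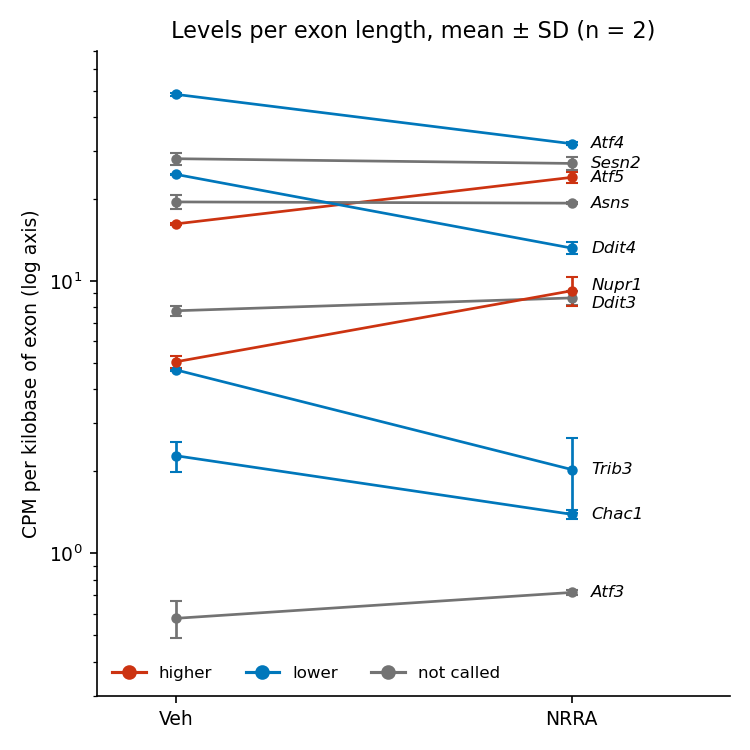
Mean level of the 10 genes in CPM per kilobase of annotated exon (log axis) in Veh and NRRA, with SD as error bars (n = 2 per group) and colour by call. Atf4 falls from 48.4 to 31.9, Atf5 rises from 16.2 to 24, and Ddit4 drops from 24.6 to 13.2 CPM per kilobase.

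Close relatives of the 10 genes were measured to see whether a change was shared within a family. Of 9 paralogs, 4 were lower (Trib1, Trib2, Sesn1 and Jdp2), 1 was higher and 4 were not called, beside 28.4% lower and 27.9% higher among all genes tested. Both other tribbles pseudokinase genes fell as Trib3 did. Trib1 had levels of 51.3 and 48.8 CPM in Veh and 17.1 and 18.5 CPM in NRRA (log2 fold change -1.49, SE 0.066), and Trib2 had a log2 fold change of -0.96. The sestrins differed from one another. Sesn3, a target of FOXO factors, had levels of 68.8 and 69.7 CPM in Veh and 116 and 118 CPM in NRRA (log2 fold change 0.76, SE 0.039), whereas Sesn1, a p53 target, had a log2 fold change of -0.42. The paralogs Chac2, Ddit4l, Nupr1l and Asnsd1 did not pass the test (log2 fold changes -0.29, -0.17, 0.19 and 0.15), and 56.5% of the exonic bases of Asnsd1 overlap other genes on its strand.

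The wider set of ATF4 targets was mostly lower. Of 40 genes in 4 lists, 39 were tested, of which 29 were lower, 5 higher and 5 not called. Over all genes tested, 28.4% were lower and 27.9% higher, and the counts below stand beside the same shares. Among the aminoacyl-tRNA synthetases, which load amino acids onto tRNA, 11 of 12 were lower and Wars alone was higher (log2 fold change 0.28), with a list median of -0.43. The lowest was Iars (-0.70), although a copy matches 49.9% of its longest transcript. Of 9 amino acid transporter genes, 8 were lower and 0 higher by edgeR (also 0 when p is left unadjusted at 0.05). The list median was -0.72. Slc7a11, the cystine importer, Slc7a5, a leucine importer, and Slc3a2, the partner chain of both, had the lowest values (-2.14, -1.23 and -1.08). Slc6a9 was not called (-0.019).

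Serine, one-carbon and proline synthesis had 5 of 7 genes lower and 0 higher by edgeR (also 0 when p is left unadjusted at 0.05). Among all genes tested, 28.4% were lower and 27.9% higher. The list median was -0.53. Phgdh, the entry enzyme of serine synthesis, was at -2.30, with near-identical copies of 89.5% of its transcript, and Shmt2, a mitochondrial serine enzyme, at -1.02. Pycr1 was not called (-0.057). The remaining targets were split. Of 11 tested, 4 were higher, led by Cth (0.78), an enzyme of cysteine synthesis, and Ero1l (0.63), an oxidase of the endoplasmic reticulum. Another 5 were lower, and Fgf21, a stress hormone, went from 13 and 12 reads under Veh to 1 and 0 reads under NRRA, which is at least 4.6-fold lower against a floor of 3 counts per library. Adm2 held 3 to 11 counts per library and was not tested.

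**Figure D4:**
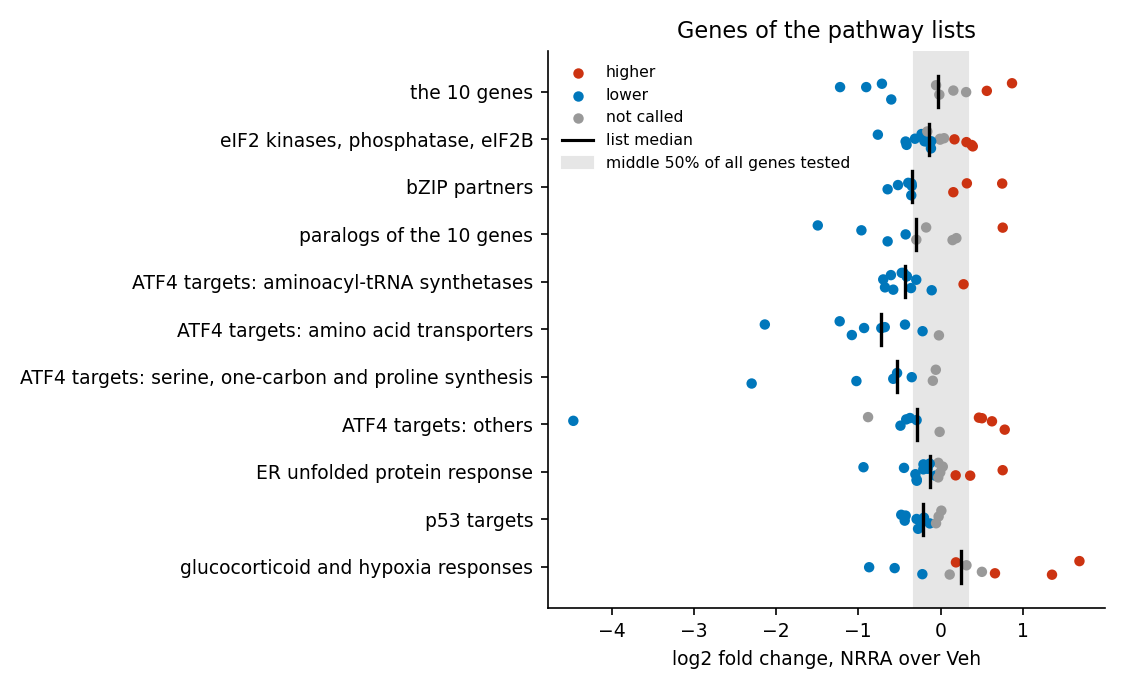
Log2 fold change (NRRA over Veh) of each tested gene in the 10 genes and in 10 lists around them, coloured by call, with the list median as a black line and the middle 50% of all genes tested, from -0.32 to 0.33, in grey. Points of the synthetase, transporter and serine lists lie mostly left of 0, while the 10 genes spread to both sides.

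Several of the 10 genes also answer to other stress pathways, whose genes were measured beside them. Ddit3 and Chac1 rise in the unfolded protein response. Of 17 genes of the ATF6 and XBP1 arms of that response, 10 were lower, 3 higher and 4 not called, with a median of -0.13 (-0.042 without TMM scaling and -0.065 without NRRA replicate 2). For this count and that of the p53 targets below, the shares over all genes tested were 28.4% lower and 27.9% higher. The chaperone gene Hspa5 (BiP) had a log2 fold change of -0.29, the lowest was Xbp1 (-0.94) and the highest Dnajb9 (0.76). Sesn2 is also a target of p53. Of 11 p53 targets, 8 were lower and 0 higher by edgeR (also 0 when p is left unadjusted at 0.05), from -0.48 for Cdkn1a to 0.010 for Eda2r.

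Ddit4 is also induced by glucocorticoids and low oxygen. Of 10 genes of these responses, 4 were higher, 3 were lower and 3 were not called (median log2 fold change 0.25, or 0.13 without NRRA replicate 2), beside 27.9% higher and 28.4% lower among all genes tested. The highest were Bnip3 (1.69), a mitophagy receptor, and Adm (1.36), a peptide hormone, and the lowest was Pdk1 (-0.87). Near-identical copies match 94.2% of the longest Bnip3 transcript, which leaves its value uncertain. Ddit4 had a log2 fold change of the sign of the 3 lower genes, Pdk1, Fkbp5 (-0.56) and Vegfa (-0.22). The 4 higher genes, Bnip3, Adm, Per1 (0.66) and Tsc22d3 (0.19), had the opposite sign. Whether either response bears on Ddit4 here was not tested.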

How the data were processed

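RNA was measured in 4 libraries (2 Veh, 2 NRRA). The authors deposited raw counts per gene. The submitters' processing notes name bcl2fastq, STAR 2.6.1c, featureCounts 1.6.4 and mm10 for these files. The annotation release and strand setting are not given in the sources used here. Columns were matched to samples by their descriptions. Gene positions are from GENCODE M21 (GRCm38), which held 55154 of the 55421 identifiers. Levels per kilobase used the union of annotated exons. Near-identical copies were BLAST matches of at least 95% identity over 100 bases outside the gene itself.

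Counts were filtered with filterByExpr, scaled with TMM and tested with edgeR 4.0.16 in R 4.3.3 (robust quasi-likelihood F test, Benjamini-Hochberg adjustment over all genes). SE was derived from the F statistic. The fit was also run on counts simulated from its own fitted spread, with few genes changed. Such counts cannot test the scaling or the independence of the replicates used here. DESeq2 1.42.0, limma-voom (limma 3.58.1), other scalings, no filter, a replicate block and leaving out each library were alternatives. Over genes with at least 50 counts, the replicates differed by more than sampling noise (chi-square per degree of freedom 2.45 in Veh and 1.99 in NRRA), and all 4 libraries were counted separately. The spread was still small. The common biological coefficient of variation in the edgeR fit was 2.61%, and replicates correlated at r = 0.993 in Veh and 0.994 in NRRA (log2 CPM across genes). With so small a spread, small differences pass the test. The study calls its sequencing replicates independent and biological, while the labels do not name the cultures behind them, and p-values measure the spread between these libraries. PCR copies were not told apart.

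The 10 genes and all lists were chosen with earlier results of these data known. Named genes were the 10 genes, Stra8, the highest and lowest tested gene of each list, genes called with at least a 2-fold change, all eIF2 kinase and bZIP partner genes, and the 5 genes most like Atf4. The other named genes (further members of the lists) were chosen after their values were seen.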

Additional observations from a re-analysis of the deposited data

How the results depend on the processing

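The 11 alternatives gave 110 values for the 10 genes, of which 105 kept direction and side of the threshold. Ddit3 gained a call with library size only (0.25), Chac1 lost its call with DESeq2, and the sign turned for Asns with library size only (0.075) and with libraries left out in turn (-0.074 to 0.050, positive without Veh replicate 2) and for Sesn2 with library size only (0.036). The numbers of the 10 genes called stayed between 2 and 3 higher and between 3 and 4 lower. Over all genes, between 4267 (DESeq2) and 6962 (library size only) were called higher and between 4317 and 5836 lower, beside 5654 and 5752 by the main test, and library size only moved the share of calls that were higher from 49.6% to 60.3% and the median of all genes by 0.090. The replicate block gave 5772 higher and 5836 lower genes and changed no call among the 10 genes. Deviations of same-numbered libraries were uncorrelated (r = -0.011 across genes), and the labels do not say that a number marks a shared culture.

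With library size only, list medians were 0.056 for the 10 genes, -0.049 for the eIF2 genes, -0.26 for bZIP partners, -0.20 for paralogs, -0.34 for synthetases, -0.44 for serine and proline synthesis, -0.042 for the unfolded protein response, -0.12 for p53 targets, -0.31 for feeder markers and 0.029 for germ cell markers, and the 10 genes summed to 369 CPM under Veh and 349 CPM under NRRA. Leaving out 1 library in turn, medians ranged from -0.14 to -0.12 for eIF2 genes, -0.33 to -0.24 for paralogs, -0.45 to -0.42 for synthetases, -0.87 to -0.66 for transporters, -0.55 to -0.47 for serine and proline synthesis, -0.39 to -0.12 for other targets, -0.16 to -0.065 for the unfolded protein response and 0.13 to 0.34 for glucocorticoid and hypoxia genes. Where a library was left out, the lone library of its group was assumed to vary like the other group.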

Other observations

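The profile of Atf4 over the 4 libraries was shared by many genes. A minimum mean of 3 on the log2 CPM scale left 11325 other genes, of which the closest to Atf4 by the root mean square difference of centred log2 CPM were Eif5a (0.00405), Klhdc3 (0.00605), Shroom4 (0.00829), Fzd7 (0.00935) and Ppp1r18 (0.0096), and 1038 genes lay within 0.1. With 4 libraries in 2 groups, the measure mostly reflects the size of the difference between the groups.

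Markers of other cells that testis cultures can hold were measured as well. The Sertoli cell markers Amh and Fshr held at most 3 counts in any library, while of the 4 markers tested 1 was higher (Clu, log2 fold change 2.82), 1 was lower (Sox9, -1.59) and 2 were not called. The 5 macrophage markers summed to 46.5 ± 3.05 CPM under Veh and 39.5 ± 0.856 CPM under NRRA (mean ± SD of 2 libraries each), with 1 lower (Cd68, log2 fold change -0.86) and 4 not called, of which Lyz2 had the highest value (-0.021). Sequence of Lyz1 matches 96% of the longest Lyz2 transcript, which leaves the Lyz2 value uncertain.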
